A study of Arabidopsis thaliana with 5 samples.

Results

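The genes described here are 6 Arabidopsis loci of the Bet v 1 and major latex protein-like family, AT4G23680, AT4G23670, AT1G14930, AT1G14940, AT1G14950 and AT1G14960. They were taken as the probe sets whose only gene in the platform annotation is one of these loci. Each locus had 1 such probe set, so 6 probe sets of 22810 on the array are described, and 6 of the 13286 loci that the array's single-gene probe sets name. The loci were proposed with differences between the sample groups already known, so those differences are given here as a description. No p-value of a member is printed, and its calls appear only as a count from which nothing is read.

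Signals came from Affymetrix ATH1 arrays of Arabidopsis thaliana roots, ecotype Columbia. The first group comprised 3 samples of root cells freed from their walls (protoplasts) and passed through a fluorescence-activated cell sorter, with RNA of about 50000 cells each. The second comprised 2 samples of intact whole roots, each labelled from 1 µg of total RNA. All seedlings had grown for 5 days on medium of pH 5.7 and then spent 24 h on medium of pH 4.6, so every sample is of the acid condition and no sample at the standard pH enters. The comparison addresses how far the transcript profile of roots at low pH differs after protoplasting and sorting. RNA input and the control ratios given below went with the group and cannot be told apart from it. No transgene or reporter is named for the sorted samples, and the labels do not say whether replicates came from separate plantings.

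Bet v 1 is the major allergen of birch pollen, and its fold is a small cytosolic barrel around a deep hydrophobic pocket that can hold lipids, steroids or hormones. Major latex proteins, first found in the latex of opium poppy, have this fold, as do the pathogenesis-related proteins of class PR-10. The abscisic acid receptors of the PYR/PYL group share it too. In Arabidopsis the latex-like genes are numerous and often stand side by side as tandem copies, and for most of them no ligand is known.

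The arrays themselves differed between the groups. Signals over tested probe sets correlated at 0.954 and 0.956 between sorted replicate 1 and the other sorted samples, at 0.987 between sorted replicates 2 and 3 and at 0.980 between the whole roots. Between the groups the correlation was 0.671 to 0.696. The actin control had a ratio of 3′ to 5′ signal of 19.8 to 29.3 in sorted protoplasts and 3.08 to 3.29 in whole roots, and the GAPDH control had a ratio of 5.22 to 9.18 in sorted protoplasts and 0.788 to 0.969 in whole roots. Of 4 equal groups by gene length, the shortest, in which all 6 family loci fall, had a median log2 difference of -0.58, against 0.15 for all tested probe sets. Apart from differences recomputed with the length trend removed, the part of these features in the results below was not tested. For bulk RNA of this kind, fewer cells of a type and less RNA per cell cannot be told apart.

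The 6 loci fell into 3 kinds. AT4G23680 and AT4G23670, neighbours on chromosome 4, were bright in whole roots and far dimmer in sorted protoplasts. AT1G14960 was weak in every sample, with overlapping groups. AT1G14930, AT1G14940 and AT1G14950 were dim in all 5 samples. The table holds no detection calls, so a filter bound was used in their place. Probe sets in the lowest 40% by mean log2 signal, which corresponds to a signal of 43.3, were left out of the tests.

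AT4G23680 had signals of 24.4, 10.2 and 0.468 in sorted protoplasts, replicates 1 to 3, against 1564 and 1439 in whole roots. The groups were thus far apart, and all 3 sorted values lay below the bound of 43.3. The mean signal was 11.7 ± 12.1 (SD, n = 3) for sorted protoplasts, against 1502 ± 88.4 (SD, n = 2) for whole roots. On the log2 scale the difference, sorted protoplasts minus whole roots, was -8.26 (SE 1.41, limma).

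The size of that difference rests on values that the array resolves poorly. The sorted samples of AT4G23680 spanned a 52.2-fold range, whereas the whole roots differed 1.09-fold. Without sorted replicate 3, its lowest sample, the log2 difference was -6.57, and without sorted replicate 1, its highest, it was -9.42. Without either whole-root sample the gene fell below the filter and was not tested, and the differences of its mean log2 signals were -8.20 and -8.32. Set against the bound of 43.3, the whole-root mean was 34.6-fold higher.

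AT4G23670, the adjacent copy, had signals of 201, 64.3 and 68.4 in sorted protoplasts, against 3748 and 3602 in whole roots. Here all sorted values lay above the bound, and again no sorted sample came near a whole-root sample. The mean signal was 111 ± 78.0 (SD, n = 3) for sorted protoplasts, against 3675 ± 103 (SD, n = 2) for whole roots. The log2 difference was -5.26 (SE 0.45), a value that 72 of the 13647 tested probe sets reached or passed. By means of the signals, whole roots were 33.0-fold higher.

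**Figure D1:**
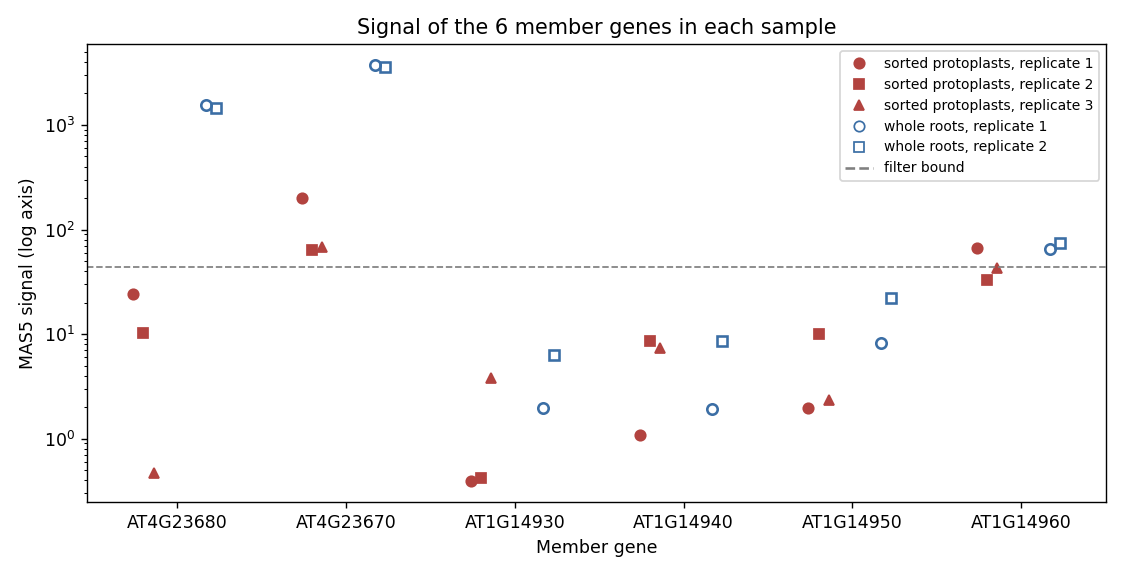
MAS5 signal (log axis) of the 6 member genes in each sample; filled symbols are the 3 sorted protoplast samples, open symbols the 2 whole-root samples, and the dashed line is the filter bound of 43.3. AT4G23680 and AT4G23670 have whole-root signals of 1439 to 3748 and sorted signals of at most 201, whereas AT1G14930, AT1G14940 and AT1G14950 lie below the bound in every sample.

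The fitted difference of AT4G23680 was lower than that of AT4G23670 by 3.00 on average on the log2 scale. By sorted sample the gap, AT4G23680 minus AT4G23670, was -1.75, -1.36 and -5.90 after each gene was set to its own whole-root mean. All 3 sorted samples had the same sign, but 1 sample, replicate 3, supplied most of the mean. With 32 added to every signal before the log, which damps values near the bottom of the range, the gap was -0.35. The fold over the bound for AT4G23680 (34.6) has the bound in place of its sorted mean. It is therefore not comparable with the fold of means for AT4G23670 (33.0). Since the gap depended on 1 sample and on the handling of low values, a larger fall of AT4G23680 than of its neighbour was not resolved by these arrays.

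In whole roots the pair varied little, with replicates differing 1.09-fold for AT4G23680 and 1.04-fold for AT4G23670. In sorted protoplasts both were highest in replicate 1, the sample that also stood apart from the other sorted samples over the tested probe sets. AT4G23670 in sorted replicate 1 was 3.13-fold above its lowest sorted value. Without that sample its log2 difference was -5.79 (SE 0.12).

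AT1G14960 had signals of 66.3, 33.0 and 42.5 in sorted protoplasts, against 65.6 and 75.1 in whole roots. Sorted replicate 1 fell between the whole-root samples, so the groups overlapped. The mean signal was 47.3 ± 17.2 (SD, n = 3) for sorted protoplasts, against 70.4 ± 6.76 (SD, n = 2) for whole roots, with a log2 difference of -0.63 (SE 0.33). That difference sits at the 25th percentile of all tested probe sets, and it was 0.52, of opposite sign, with the trend of difference against gene length removed.

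The other tandem copies on chromosome 1 gave no level that could be compared. AT1G14930 had signals of 0.390, 0.424 and 3.82 in sorted protoplasts, against 1.94 and 6.36 in whole roots. AT1G14940 had 1.09, 8.50 and 7.37 in sorted protoplasts, against 1.94 and 8.62 in whole roots. AT1G14950 had 1.96, 10.1 and 2.36 in sorted protoplasts, against 8.19 and 22.1 in whole roots. Every one of these 15 signals was below the bound, and within a group replicates differed 2.70-fold to 9.79-fold, so no fold is given. The arrays thus measured AT1G14960 alone of the 4 adjacent copies, and for the other 3 no transcript in roots and a signal below the range of the probe set cannot be told apart.

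Of the 3 member genes that passed the filter, AT4G23680, AT4G23670 and AT1G14960, limma called 2 lower at an adjusted p under 0.05 and did not call AT1G14960. Of all tested probe sets 26.5% were called lower and 60.6% in either direction. Since this contrast was known when the genes were chosen, nothing is read from that count. AT4G23680 got past the filter through whole roots alone, since its sorted mean lay below the bound.

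**Figure D2:**
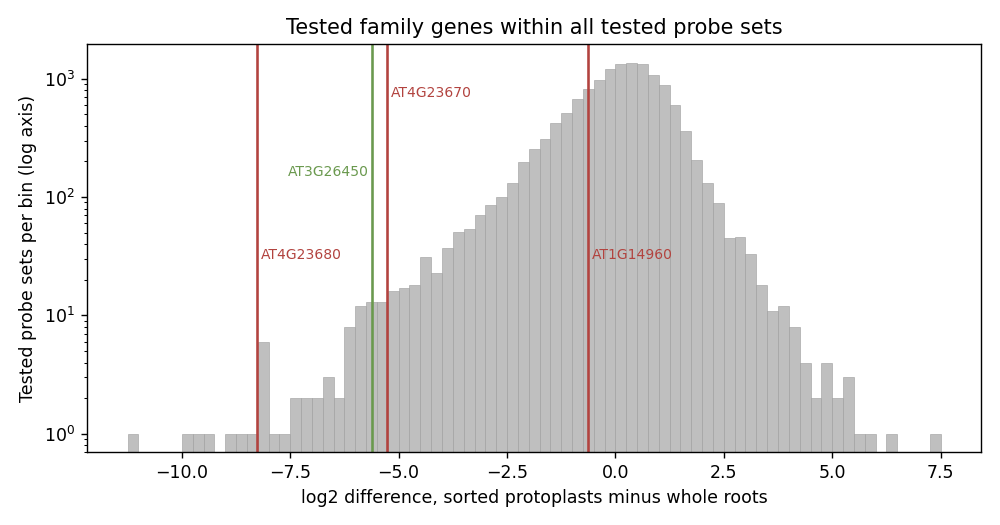
Distribution of the log2 difference, sorted protoplasts minus whole roots, over 13647 tested probe sets (bars, 0.25 log2 units wide, log axis for the count), with lines at the tested family genes. AT4G23680 at -8.26, AT3G26450 at -5.61 and AT4G23670 at -5.26 lie in the sparse left tail, while AT1G14960 at -0.63 lies in the body of the distribution.

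The wider family was then examined through 22 further loci of the Bet v 1 and latex-like type, listed from general knowledge of the family. That list was written with earlier results of these data known, so its counts of calls and the p-values of its genes are a description. Single-gene probe sets named 11 of the 22 loci, and with the 6 members 17 genes were measured. The remaining 11, among them MLP28, MLP31, MLP34, MLP43, MLP165, MLP168, MLP328, MLP329 and MLP423, had no single-gene probe set in the annotation and were not analysed here. The same held for all 14 PYR/PYL abscisic acid receptors. Of the 11 other genes 1 passed the filter, AT3G26450. Both group means were below the bound in 6, and in 4 (AT1G23120, AT1G70880, AT3G26460 and AT4G14060) the whole-root mean was above it but the mean log2 value over all samples was not. Tests without a filter, over 22746 probe sets, are therefore given for them.

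Without the filter, 5 of the 11 other family genes passed as lower in sorted protoplasts (adjusted p under 0.05 by limma), where 19.7% of all 22746 probe sets were called lower. AT4G14060 had signals of 1.69, 1.52 and 0.885 in sorted protoplasts, against 182 and 170 in whole roots (log2 difference -7.06, SE 0.62, limma adjusted p = 9.88e-05). AT3G26460 had 2.75, 0.983 and 5.88 in sorted protoplasts, against 162 and 160 in whole roots (-6.00, SE 0.78, limma adjusted p = 0.000602). In these genes the whole-root samples were nearly equal and the sorted samples at the bottom of the range.

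AT1G23120 had signals of 14.9, 1.91 and 4.02 in sorted protoplasts, against 257 and 227 in whole roots (-5.64, SE 0.80, limma adjusted p = 0.000902). AT3G26450 had 23.1, 10.6 and 7.23 in sorted protoplasts, against 564 and 618 in whole roots (-5.61, SE 0.47, limma adjusted p = 8.2e-05). AT1G70880 had 6.68, 4.33 and 1.23 in sorted protoplasts, against 71.6 and 123 in whole roots (-4.83, SE 0.80, limma adjusted p = 0.00192). All of these genes had sorted means below the bound and exceeded it through whole roots alone. The folds are uncertain, and the p-values describe a contrast already known. Relative to that bound, whole roots were 13.6-fold higher for AT3G26450, 5.59-fold for AT1G23120, 4.06-fold for AT4G14060, 3.72-fold for AT3G26460 and 2.24-fold for AT1G70880.

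The other 6 family genes had both group means below the bound and did not pass. They were AT1G23130, AT1G24000, AT1G24010, AT1G30990, AT1G70870 and AT5G28010. Their signals ranged from 0.537 to 26.2 in sorted protoplasts and from 0.248 to 41.2 in whole roots. No gene of the 11 passed in the higher direction by limma, and 1 did at an unadjusted p under 0.05, AT1G24000 (limma adjusted p = 0.0991). It passed with quantile normalization (limma adjusted p = 0.0469). The median log2 difference was -2.52 over the 11 other genes, -1.97 over the 6 members and -0.02 over all 22746 probe sets, values that include genes below the bound in both groups.

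**Figure D3:**
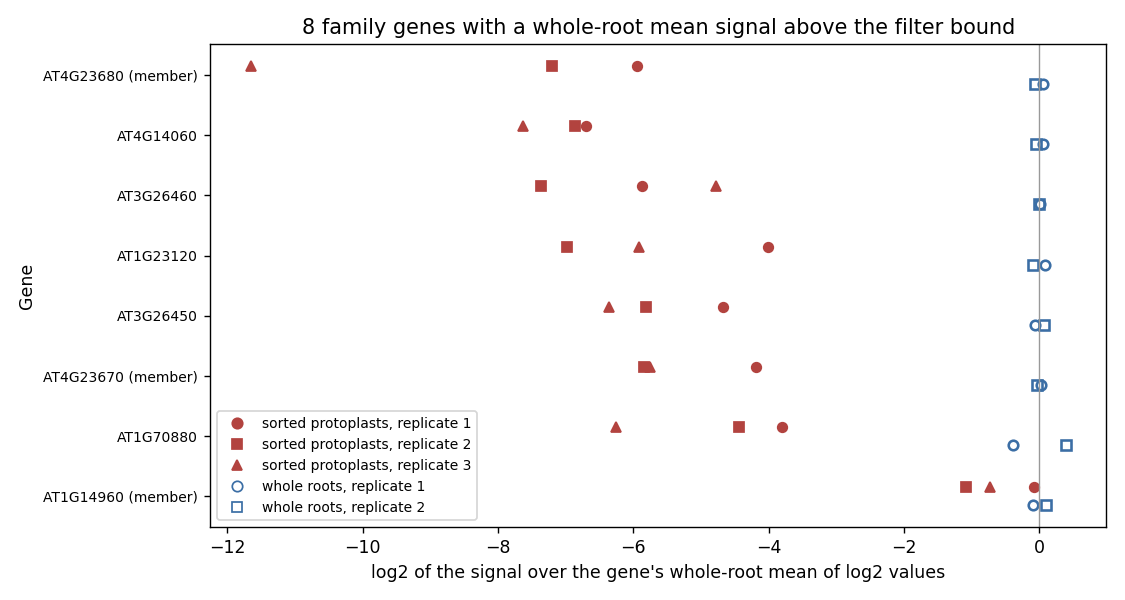
Signal of the 8 family genes with a whole-root mean above the bound of 43.3, as log2 of the ratio to the gene's whole-root mean, one row per gene; filled symbols are the 3 sorted samples and open symbols the 2 whole-root samples. In 7 of 8 genes every sorted sample lies well left of both whole-root samples, and AT1G14960 is the gene whose groups overlap.

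Of the 17 measured family genes, 8 had a whole-root mean above the bound, and in 7 of these every sorted sample was below every whole-root sample. The exception was AT1G14960. Among all 14100 probe sets with a whole-root mean above the bound, the groups were separated in this direction in 38.4%. In 6 of the 8 genes the sorted mean was below the bound as well, compared with 11.3% of those 14100 probe sets. These genes were picked by family and include AT4G23680 and AT4G23670, whose difference was known. The list of the others was also written with earlier results of these data known, so the shares are a description.

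In other adjacent copies a comparison was possible for 1 pair. AT3G26450 and AT3G26460, which neighbour each other on chromosome 3, were both lower in sorted protoplasts, as AT4G23670 and AT4G23680 were on chromosome 4. AT1G23120 and AT1G70880 were lower in sorted protoplasts, but their neighbours AT1G23130 and AT1G70870 were below the bound in both groups, so these pairs cannot be compared. All 6 member probe sets carry the plain suffix of sets designed to match a single transcript, but probe sequences were not used here and cross-hybridization between copies was not tested.

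Of the genes flanking the chromosome 4 pair, neither of those above the bound passed the test. The nearest measured genes were the next ones on each side with a single-gene probe set. Before AT4G23670 the nearest was AT4G23620, 5 coding genes away, with 218, 324 and 297 in sorted protoplasts, against 374 and 255 in whole roots (log2 difference -0.16, limma adjusted p = 0.579). After AT4G23680 came AT4G23720, 4 coding genes away, and AT4G23730 (-0.56, limma adjusted p = 0.0565). AT4G23730 passed as lower in sorted protoplasts under 4 of the other settings tried, among them without sorted replicate 1 (limma adjusted p = 0.0268). AT4G23720 and the next gene before AT4G23620, AT4G23610, were below the bound in all samples. The genes in between, such as PPT1 and DIR6, had no single-gene probe set, so whether genes next to the pair also differed is not resolved.

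Around the chromosome 1 cluster the flanking genes differed between the groups in both directions. AT1G14910, before the cluster, was higher in sorted protoplasts, with 506, 479 and 444 in sorted protoplasts, against 177 and 212 in whole roots (log2 difference 1.299, limma adjusted p = 0.000345). AT1G14890 was higher as well (1.08, limma adjusted p = 0.0166), but not without whole-root replicate 1 (limma adjusted p = 0.144). AT1G14970, which directly follows AT1G14960, had 75.8, 142 and 142 in sorted protoplasts, against 2.46 and 18.1 in whole roots, and passed with no filter (limma adjusted p = 0.00362). AT1G14990 was lower in sorted protoplasts (-1.59, limma adjusted p = 0.000822).

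**Figure D4:**
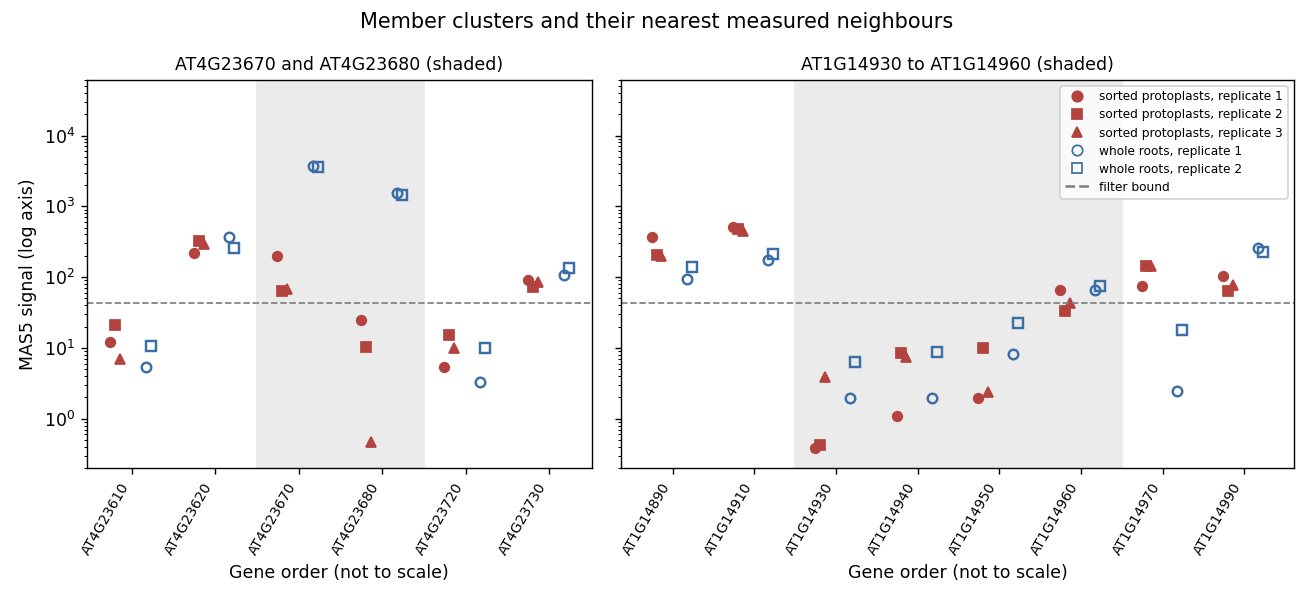
MAS5 signal (log axis) in gene order around both member clusters; shaded genes are members, filled symbols the 3 sorted samples, open symbols the 2 whole-root samples, and the dashed line the bound of 43.3. On chromosome 4 the shaded pair alone shows sorted samples far below whole roots among the genes drawn. On chromosome 1 AT1G14890, AT1G14910 and AT1G14970 show sorted samples above whole roots, and AT1G14990 shows them below.

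Patterns like those of the members were sought among 7363 tested single-gene probe sets, by the root mean square difference of log2 signals over the 5 samples after each gene was centred on its own mean. Closest to AT4G23670 were LCR69 (AT2G02100), a gene for a small cysteine-rich protein of the defensin type, at 0.18, AT2G36690 at 0.18 and AT2G37750 at 0.21. LCR69 had signals of 337, 150 and 148 in sorted protoplasts, against 6586 and 7423 in whole roots. Like AT4G23670, LCR69 was highest among the sorted samples in replicate 1, which follows from how it was picked. Closest to AT4G23680 were AT3G58550 at 1.07, AT2G18370 at 1.47 and AT5G09480 at 1.60, a looser match.

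AT1G14960 was matched within 0.06 by IRX15-L (AT5G67210), a gene of xylan synthesis, at 0.02, by AT1G17490 at 0.05 and by AT1G74940 at 0.06. IRX15-L had signals of 129, 65.9 and 80.8 in sorted protoplasts, against 128 and 146 in whole roots. The likeness rests on 5 samples of 2 groups and describes the arrays.

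**Figure D5:**
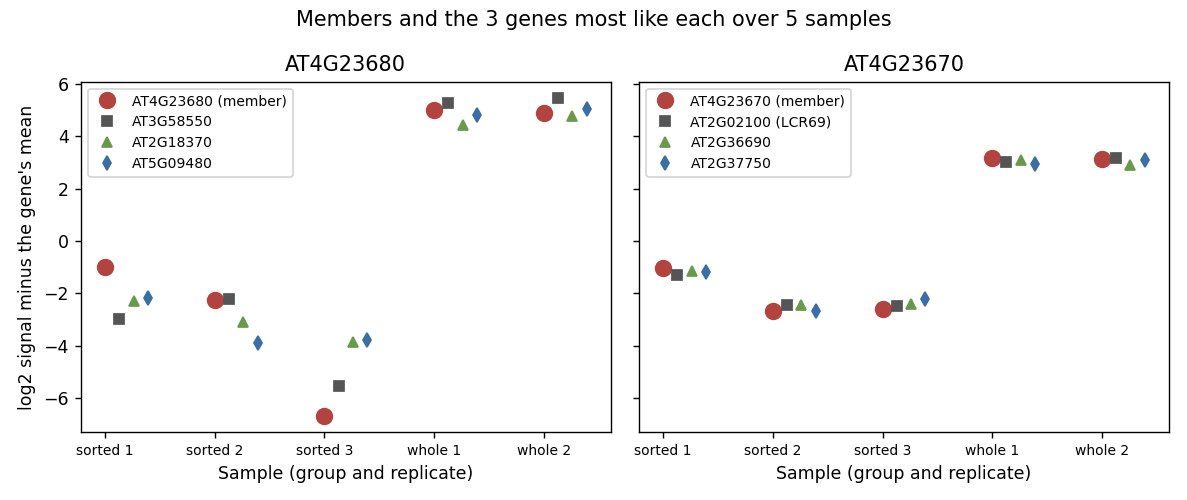
Log2 signal minus the gene's own mean in each of the 5 samples for AT4G23680 (left) and AT4G23670 (right), each with the 3 genes most like it; symbols mark genes. The genes beside AT4G23670 lie within a root mean square difference of 0.21 log2 units of it, whereas those beside AT4G23680 lie at 1.07 to 1.60.

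Markers of cell types were read beside the chromosome 4 pair. Of 6 shoot and chloroplast markers 2 were measured, RCA and LHCB4.1, and both were lower in sorted protoplasts. Their summed signal was 92.6 to 112 in sorted protoplasts and 802 to 971 in whole roots, and neither was at 0. Among the sorted samples these markers were highest in replicate 2, and AT4G23680 and AT4G23670 in replicate 1. Replicate 1 was the highest in 40.2% of all probe sets, and the sorted values of AT4G23680 lay below the bound. Nothing is read from these orders. Of 3 root hair markers 2 were measured, EXPA7 and EXPA18, with a summed signal of 46.1 to 130 in sorted protoplasts and 128 to 140 in whole roots, and neither passed (limma adjusted p = 0.140 and 0.184). Without sorted replicate 3, EXPA7 passed as lower (limma adjusted p = 0.034). The cortex list (2 of 3 measured) summed to 96.4 to 111 in sorted protoplasts and 96.2 to 97.7 in whole roots, but its genes differed in opposite directions. AT1G62510 had 37.9, 30.001 and 38.5 in sorted protoplasts, against 67.4 and 85.2 in whole roots (log2 difference -1.10, limma adjusted p = 0.00842). It did not pass when whole-root replicate 2 was left out (limma adjusted p = 0.0768), and its sign turned (0.16) once the trend with gene length was taken off. AT1G09750 had 58.5, 80.5 and 62.1 in sorted protoplasts, against 28.8 and 12.5 in whole roots (1.81, limma adjusted p = 0.0111 with no filter). Endodermis, stele and root cap were represented by GSO1, LHW and AT1G65570, of 3 markers each. GSO1 had signals of 506 to 1173 in sorted protoplasts and 389 to 454 in whole roots (log2 difference 0.67, limma adjusted p = 0.133). LHW had signals of 775 to 1187 in sorted protoplasts and 342 to 403 in whole roots. It passed as higher in sorted protoplasts (1.34, limma adjusted p = 0.000869). AT1G65570 had signals of 78.3 to 242 in sorted protoplasts and 68.3 to 86.3 in whole roots (0.81, limma adjusted p = 0.134). Under other settings, GSO1 passed as higher with median centring (limma adjusted p = 0.0389). AT1G65570 did so without sorted replicate 2 (limma adjusted p = 0.0206). The part of cell composition in the low signals of AT4G23680 and AT4G23670 was not tested.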

How the data were processed

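The deposited values are MAS5 intensity on a linear scale for 5 arrays, as the authors made them, per the submitters' processing notes. Its version is not given in the sources used here. The mean signal after trimming 2% at each end was 250 on every array. Their log2 was used without renormalizing. The 64 controls and the 40% of the others with the lowest mean log2 value (9099) were left out, and 13647 were tested in limma 3.58.1 (R 4.3.3). Its linear model had group as the only factor, moderated variances followed a trend with mean signal, and p-values were adjusted by Benjamini-Hochberg over every tested probe set. The script was checked on simulated data. The number of arrays limits the precision, and the p-values cover only the spread among these samples, possibly technical.

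Names came from the platform annotation (1 gene for 13513, of which 13436 matched a locus of the RefSeq table for TAIR10.1; several for 503; none for 8730); no several-gene probe set names a listed family gene. Gene order and length came from that table, and no coordinates are printed, since the probe sets come without a build. Member genes and lists were chosen with earlier results of these data known. Named genes were all members, the 4 largest and 2 smallest changes of the other listed family genes (the rest of that list was named after its values were seen), the 2 nearest measured genes on each side of each cluster, and the 3 genes most like each tested member. Same-numbered samples share only a number in the titles.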

Additional observations from a re-analysis of the deposited data

How the results depend on the processing

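The member differences, AT3G26450, the counts of calls and, added after seeing the data, the flanking genes and markers that passed the filter were recomputed after quantile normalization or median centring, with 32 added to each signal, with a 60% filter or none, with the variance trend off, with a replicate block, with the length trend removed, and without each sample in turn. The log2 difference of AT4G23670 lay between -5.79 and -4.63 in all 13. That of AT4G23680 moved beyond its within-group SD with the pseudocount (-5.17) and lay between -9.42 and -6.57 with a sample left out. That of AT1G14960 ranged from -0.91 to -0.40 with a sample left out and was 0.52 with the length trend removed. AT4G23680 was not retained, and so not tested, at the 60% filter or without either whole-root sample (-8.20 and -8.32 as differences of means), nor AT1G14960 at the 60% filter. The count of other family genes called lower, 1 after the filter, was 2 with the pseudocount, 5 with no filter, 0 at the 60% filter and 0 to 1 with a sample left out, and it was 0 where no listed gene passed the filter. With no filter, combinations with the other choices, added after seeing the data, called the same 5 lower (6 with the pseudocount, which added AT1G30990), with adjusted p of the 5 at most 0.0329. With the replicate block the difference was -6.57 for AT4G23680, -5.01 for AT4G23670 and -0.59 for AT1G14960, and 6937 probe sets were called against 8272 without it. Only sorted protoplasts have a replicate 3, so these differences equal those without that sample and are no separate check. The deviations of same-numbered samples correlated at 0.01 and 0.00, so the numbers were not taken as pairs. Total calls ranged from 5826 to 9487, and median centring gave 5925 higher and 2876 lower, against 4649 and 3623. Total calls were not recomputed with the length trend removed. Of 170 values for 14 other tested genes, 155 kept direction and call, 2 lost the call, 9 gained it and 4 changed sign. AT4G23620, not called in any, was 0.076 with median centring and ranged from -0.44 to 0.12 with a sample left out, and AT1G62510 was 0.16 with the length trend removed. AT1G14970, AT1G09750, the likeness and the shares of separated groups were not recomputed.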

Other observations

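A filter on the mean of log2 signals removed family genes that were measured in whole roots and near 0 in sorted protoplasts (AT1G23120, AT1G70880, AT3G26460 and AT4G14060). Over the array, 1279 probe sets lay below that filter although the mean signal of a group exceeded the bound of 43.3. Of these, 967 were above the bound in whole roots and not in sorted protoplasts, and 309 the other way round. With no filter, limma called 704 of the 967 lower and 161 of the 309 higher in sorted protoplasts.

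Sorted replicate 1 had the highest signal of the 3 sorted samples in 10 of 17 measured family genes, and in 7 of the 8 that were above the bound in whole roots (AT3G26460 was the exception). Over all 22746 probe sets, with no limit on whole-root signal, it was the highest in 40.2%. The share among probe sets above the bound in whole roots was not computed. In 6 of the 8 genes the sorted mean was below the bound, where the order of replicates is poorly resolved. The genes share these arrays, so the counts describe that sample.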
